A study of Mus musculus with 3 samples.

Results

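The cells described here are the deep inner medullary collecting duct cells of the mouse kidney. They are the cells of the cluster that the deposited annotation calls deepIM-CD, within its collecting duct (CD) cell type, and they were chosen by that label alone. There were 11891 of them among 181257 annotated cells, and among 49021 CD cells, which the annotation divides into 6 clusters. Of the deepIM-CD cells, 8487 came from 78631 control cells, 1602 from 59132 cells at day 28 and 1802 from 43494 cells at day 84. Aqp2, the vasopressin-regulated water channel of CD principal cells, and Slc14a2, the urea transporter of the inner medullary CD, mark these cells. Gene values were not analysed here, so the label was not checked against its markers, and each value below is a cell number, a UMI count, a number of detected genes or a mitochondrial percent.

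The CD carries urine through the medulla, and its deepest segment empties at the tip of the papilla into the renal pelvis. In this segment vasopressin opens water and urea pathways, and urea that leaves the duct helps to build the osmotic gradient with which the kidney concentrates urine. Obstruction of the ureter raises the pressure in the renal pelvis, which these ducts open into.

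All mice were male BALB/c, and the tissue was dissected renal medulla, labelled kidney papilla. Healthy controls were compared with mice 28 and 84 days after reversible unilateral ureteric obstruction (R-UUO), in which the left ureter was clamped at 12 to 13 weeks of age. The clamp was taken off after 5 to 7 days, an interval that the methods tie to the mouse strain. The paper's long-term functional studies of BALB/c mice used 7 days, and its single-cell methods give no separate interval for these pools. The methods describe removal of the other kidney at day 10 for long-term studies. The effects of obstruction and of nephrectomy can therefore not be told apart against healthy controls. The control age is not given in the sources used here. Each pool held the medullas of 3 to 4 mice, and there were 4 control pools, 4 at day 28 and 2 at day 84, written below as Control 1 to 4, D28 1 to 4, and D84 1 and D84 2.

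The pool was the replicate in every test. Pools of a condition shared droplets, since a probe barcode separates the pools within one droplet: 57.7% of control deepIM-CD cells lay in a droplet barcode that also held a cell of another control pool, 47.5% at day 28 and 24.9% at day 84, against 57.5%, 48.6% and 24.7% of all cells. The cells of a condition were thus loaded together, and the effect of that run and of the condition cannot be told apart. A full cell barcode also found in another condition was carried by 286 control, 68 day 28 and 79 day 84 deepIM-CD cells. The pools held 13013 to 24338 cells and 30076600 to 106243000 UMIs. D28 4 stood apart with 90 deepIM-CD cells, and the main day 28 differences are given with and without it. The dissections held varying amounts of outer medulla: proximal tubule cells, which belong there and in the cortex, made up 0.11% to 3.02% of control cells, 2.95% to 22.8% at day 28, and 3.60% and 7.64% at day 84. Their part in the shares was measured only through the denominators below.

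Deep inner medullary CD cells were a large part of the control CD and a smaller part of it after R-UUO. In the controls they made up 22.1%, 36.0%, 33.5% and 43.0% of CD cells in pools 1 to 4. At day 28 the shares were 15.0%, 11.5%, 27.8% and 3.20%, and at day 84 they were 13.3% and 13.6%. D28 3 lay above Control 1, so the control and day 28 pools overlapped, whereas both day 84 pools lay below every control pool. The 95% exact binomial interval was 2.58% to 3.92% in D28 4 and 41.8% to 44.1% in Control 4, and the intervals of the day 84 pools overlapped (12.4% to 14.1% and 12.8% to 14.4%). These intervals cover counting error only.

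In limma, the log2 odds of being deepIM-CD among CD cells were lower at day 28 by -1.92 (standard error 0.62, adjusted p = 0.0115). In that comparison 6 of 7 CD clusters and sets tested were called, 85.7%, so that most of the CD composition differed. The exact two-sided permutation test over the 8 pools gave p = 0.0571, where the smallest value it allows is 0.0286. Without D28 4 the difference was -1.26 (limma adjusted p = 0.00133), and without D28 3 it was -2.44 (limma adjusted p = 0.00101).

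At day 84 the difference in log2 odds among CD cells was -1.68 (standard error 0.76, limma adjusted p = 0.06), with 4 of 7 called, 57.1%. The exact permutation test gave p = 0.133, the smallest it can give with 4 pools against 2. Among the alternatives run it passed the threshold only when D28 4, D28 3 or Control 1 was left out. Without D28 4 the same difference had a limma adjusted p of 3.24e-04, and without D28 3 of 0.0247. Without Control 1 it was -1.95 with a limma adjusted p of 0.0471. Leaving out a day 28 pool cannot change the difference between day 84 and control, only the spread that the fit shares between conditions. Between day 84 and day 28 the log2 odds differed by 0.24 (95% interval -1.42 to 1.91, limma adjusted p = 0.755), which leaves room for sizeable differences in either direction. Without D28 4 this difference turned to -0.42 (limma adjusted p = 0.685).

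As a share of all cells, deepIM-CD cells made up 7.63%, 9.77%, 10.9% and 15.0% in the control pools. The day 28 pools held 2.56%, 1.70%, 5.70% and 0.58%, and the day 84 pools held 4.27% and 4.04%. No pool after R-UUO reached the lowest control. The mean share was 10.8% ± 3.07 (SD, n = 4) over control pools, 2.63% ± 2.20 (SD, n = 4) over day 28 pools and 4.15% ± 0.158 (SD, n = 2) over those of day 84.

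**Figure D1:**
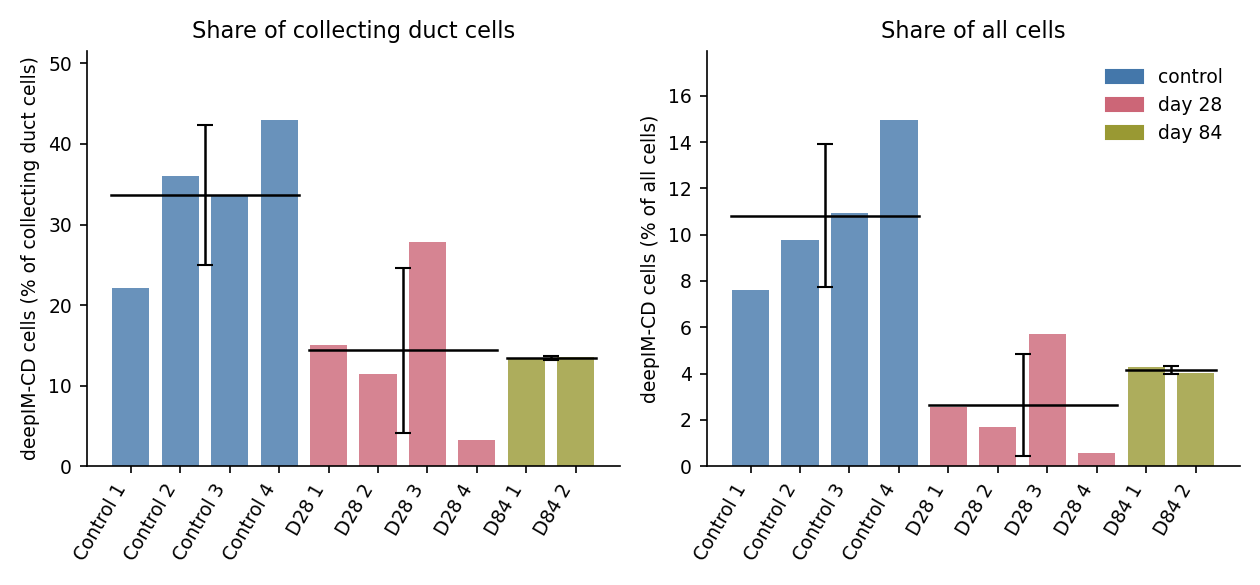
Share of deepIM-CD cells in each pool, as a percent of collecting duct cells (left) and of all cells (right), with bars for pools, horizontal lines for condition means and error bars for 1 SD. Against CD cells D28 3, at 27.8%, lies above Control 1, at 22.1%, while against all cells every pool after R-UUO lies below the lowest control, at 7.63%.

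The log2 odds among all cells were lower at day 28 by -2.56 (standard error 0.62, limma adjusted p = 0.00508), and the exact permutation test gave its smallest value, 0.0286. Of the 25 clusters tested, 22 were called, 88.0%. Without D28 4 the difference was -1.97 (limma adjusted p = 0.00302). When the denominator left out the proximal tubule it was -2.33 (limma adjusted p = 0.00736). At day 84 the difference was -1.44 (standard error 0.77, 95% interval -3.18 to 0.29, limma adjusted p = 0.136), with 12 of 25 called, 48.0%. It passed the threshold only when D28 4 was left out, among the alternatives run (limma adjusted p = 0.0339). That left the difference itself unchanged and altered only the spread shared between conditions.

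Against other inner medullary cells the picture was different. With the clusters DTL and ATL (descending and ascending thin limbs), IM-TL, IM-CD, EndoVR/papilla and deepIM-CD as the denominator, a choice made after the data were seen, deepIM-CD cells were 13.3% to 25.4% of control cells, 16.2%, 12.3%, 23.9% and 3.95% of day 28 cells, and 18.6% and 14.0% of day 84 cells. Only D28 2 and D28 4 lay below the control range. The log2 odds difference was then -0.80 at day 28 (limma adjusted p = 0.232) and -0.31 at day 84 (limma adjusted p = 0.718). D28 4, at 3.95%, lay far below the other day 28 pools. The fit was not repeated without it, so its part in the -0.80 was not measured.

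The nearest neighbour of these cells by position is the IM-CD cluster, the other inner medullary CD cells. The ratio of deepIM-CD to IM-CD cells was 0.502, 1.64, 1.25 and 1.79 in the control pools. It was 1.31, 1.02, 2.07 and 0.542 in the day 28 pools, and 1.27 and 0.627 in those of day 84. The 3 conditions overlapped, with Control 1, D28 4 and D84 2 at the low end. The log2 ratio differed by -0.07 at day 28 (95% interval -1.67 to 1.53, limma adjusted p = 0.952) and by -0.38 at day 84 (95% interval -2.34 to 1.57, limma adjusted p = 0.758). Without D28 4 the former was 0.27 (limma adjusted p = 0.678), and the sign turned under some of the alternatives, as given in the closing section. These intervals are wide, and differences of 2-fold in either direction lie within them.

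Over the 24 other clusters, deepIM-CD cells were fewer relative to 16 at day 28 (66.7%) and to 11 at day 84 (45.8%), and more numerous relative to none that passed the threshold. Without D28 4 the day 28 count was again 16, and without D84 2 the day 84 count was 7. These 24 ratios share the deepIM-CD counts and are not independent. The limma fit pools their spread as if they were, so its p-values for them can be too small. Of these ratios, the exact permutation test was run for that to IM-CD only. The largest differences at day 28 were against InjuredLOH (-8.56 on the log2 scale, limma adjusted p = 2.03e-12), the injured loop of Henle cells, against PT-S1S2 (-8.34) and against InjuredCD (-7.87). Without D28 4 they were -7.75, -8.61 and -7.04. The ratio to InjuredCD cells, the CD cluster that carries injury markers in the study's annotation, was 124 to 197 deepIM-CD cells for each InjuredCD cell in the control pools, 0.111 to 2.36 at day 28, and 0.719 and 1.11 at day 84. The control ratios rest on 8 to 19 InjuredCD cells a pool, and those above on 9 to 54 InjuredLOH cells and 9 to 22 PT-S1S2 cells. The cells were assigned to these clusters by their expression, and whether cells once in the deepIM-CD state are counted as InjuredCD was not tested.

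Among the remaining CD clusters, deepIM-CD fell relative to OM-CD_b, an outer medullary cluster, at day 28 by -3.07 (standard error 0.81, limma adjusted p = 8.63e-04). Its day 84 fall was -2.43 (limma adjusted p = 0.0401), and it lost the call without Control 1, 3 or 4, D28 1 or 2 or either day 84 pool, with values from -2.59 to -2.25. Relative to Uro, the urothelial cells that the annotation places with the CD, it fell at day 28 by -3.37 (limma adjusted p = 4.07e-04). Leaving out D28 4 gave day 28 values of -2.42 for OM-CD_b (limma adjusted p = 0.00146), -2.63 for Uro (limma adjusted p = 0.00138) and -0.86 for OM-CD_a (limma adjusted p = 0.175). Relative to Uro the fall at day 84 was -3.59 (limma adjusted p = 0.00302). Relative to OM-CD_a the log2 differences were -1.44 (95% interval -3.06 to 0.18, limma adjusted p = 0.107) and -1.01 (95% interval -2.99 to 0.98, limma adjusted p = 0.431). At day 28 the 8 clusters without a call were DTL, OM-CD_a, Endo_b, IM-TL, ATL, IM-CD, Fib and EndoVR/papilla, named after their values were seen, with log2 differences from -1.65 to 0.64.

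The median deepIM-CD cell also carried more RNA counts than the median of the other cells of its pool, by about 5-fold in the controls and less after R-UUO. The median number of UMIs per deepIM-CD cell was 6114, 6997, 6579 and 5538 in the control pools. At day 28 it was 6475, 4266, 4290 and 3060, and at day 84 it was 2507 and 1783. The median of all cells outside the cluster was 1098, 1462, 1095 and 1106 in the controls, 3257, 2187, 1767 and 1560 at day 28, and 881 and 737 at day 84. Other cells thus held more UMIs in every day 28 pool than in any control pool, while deepIM-CD cells held fewer than the lowest control in 3 of 4 day 28 pools and both day 84 pools.

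Set against the other cells of its own pool, the median deepIM-CD cell held 5.57, 4.79, 6.01 and 5.01 times as many UMIs in the controls. This multiple was 1.99, 1.95, 2.43 and 1.96 in the day 28 pools, and 2.85 and 2.42 in those of day 84. The groups did not overlap at either time. On the log2 scale the multiple was lower at day 28 by -1.36 (standard error 0.107, 95% interval -1.59 to -1.13, limma adjusted p = 9.12e-08), where 6 of 17 clusters with at least 20 cells in every pool were called, 35.3%. It was lower at day 84 by -1.02 (standard error 0.131, limma adjusted p = 3.54e-05), where 2 of 17 were called, 11.8%. The exact permutation test gave 0.0286 at day 28 and 0.133 at day 84, the smallest values possible. Day 84 differed from day 28 by 0.34 (95% interval 0.058 to 0.621, limma adjusted p = 0.182).

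deepIM-CD and Uro were the clusters called at day 84. Uro, whose cells line the papilla and pelvis, had a log2 difference of -1.28 at day 28 (standard error 0.173, limma adjusted p = 3.31e-05). Its day 84 difference of -0.95 (limma adjusted p = 0.00473) was -0.62 and no longer called without D84 1 (limma adjusted p = 0.138). The other clusters called at day 28 were Fib, IM-TL, Endo_b and IC, the last of these named after its value was seen, with differences from -0.62 to -0.30. The median over the 17 clusters was -0.17 at day 28 and -0.11 at day 84. IM-CD had -0.35 (limma adjusted p = 0.0661) and -0.26 (limma adjusted p = 0.299).

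The fall of deepIM-CD held against each reference tried. Against the other CD cells of the pool, the multiple was 4.81 to 6.07 in the controls, 1.40 to 1.73 at day 28, and 2.03 and 2.12 at day 84, and the log2 difference from the controls was -1.72 at day 28 (limma adjusted p = 7.01e-07) and -1.35 at day 84 (limma adjusted p = 4.57e-05). Against IM-CD cells alone, a reference added after the data were seen, the multiple was 5.05 to 6.01 in the controls, 2.48 to 3.72 at day 28, and 3.75 and 3.04 in the day 84 pools. The log2 difference there was -0.93 at day 28 (limma adjusted p = 1.25e-04) and -0.71 at day 84 (limma adjusted p = 0.0258). Without D28 4 the difference against all other cells was -1.33 at day 28 (limma adjusted p = 7.32e-06). The mix of the other CD cells changed, with 8 to 19 InjuredCD cells in a control pool and 337 to 808 at day 28. Their median, averaged over pools, was 1201 UMIs in the controls, 2783 at day 28 and 1039 at day 84. For IM-CD it was 1137, 1534 and 627.5. The part of sequencing depth, capture and the cell mix of the reference in these values was not tested beyond these references.

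**Figure D2:**
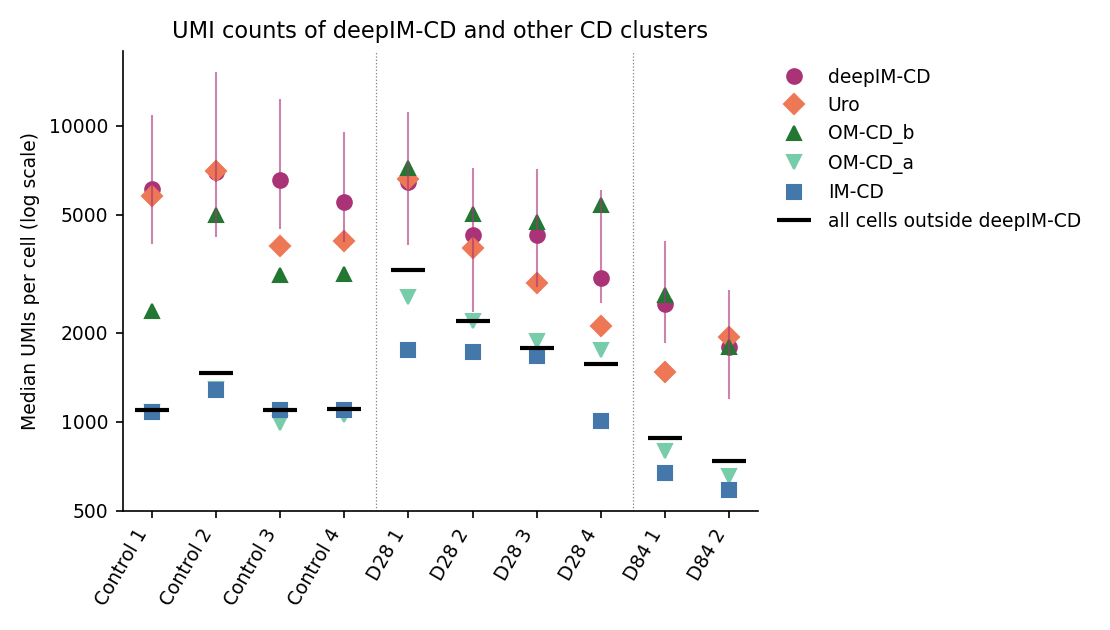
Median UMIs per cell (log scale) in each pool for deepIM-CD, with a vertical line from its lower to its upper quartile, for 4 other CD clusters, and for all cells outside deepIM-CD (black bars). In the controls deepIM-CD lies at 5538 to 6997 against 1095 to 1462 for other cells, and the gap narrows to between 1.95-fold and 2.85-fold after R-UUO.

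Not corrected for the pool, the log2 median UMI count of deepIM-CD cells differed by -0.53 at day 28 (standard error 0.247, limma adjusted p = 0.0548), where 10 of 17 clusters were called, 58.8%, each of them higher. Without D28 4 it differed by -0.36 (limma adjusted p = 0.154). The medians of Uro and deepIM-CD were the only ones with a negative difference over all pools, and Uro had -0.52 (limma adjusted p = 0.0552). At day 84 the deepIM-CD difference was -1.57 (standard error 0.303, limma adjusted p = 7.48e-06), where 9 of 17 clusters were called, 52.9%, each of them lower. The exact permutation test gave p = 0.0857 at day 28 and 0.133 at day 84. In this measure the limma fit gave all 17 clusters the same standard error and counted them as independent. They come from the same pools, so its p-values can be too small. Between the times, day 84 was lower than day 28 by -1.05 (limma adjusted p = 8.19e-04), and so was every cluster tested, 100%. Without D84 2 that difference was -0.80 (limma adjusted p = 0.0558).

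Among the 17 clusters, deepIM-CD had the highest median UMI count in Control 1, 3 and 4 and the second highest, after Uro, in Control 2. After R-UUO it ranked 3 or 4 in every pool. The spread within the cluster was wide: the middle part of the cells, between the quartiles, ran from 4035 to 9558 UMIs in Control 4 and from 1196 to 2779 in D84 2. Cells with over 10000 UMIs made up 28.6%, 37.7%, 30.6% and 23.4% of deepIM-CD cells in the controls, 28.5%, 19.7%, 16.4% and 20.0% at day 28, and 3.91% and 1.56% at day 84. D28 1 lay within the control range, and the exact permutation test gave p = 0.0571 at day 28 and 0.133 at day 84. Control pools held 29 deepIM-CD cells with over 100000 UMIs (cluster total 8487). For day 28 the number was 2 (cluster total 1602), and for day 84 it was 0 (cluster total 1802). Counted over all clusters, such cells numbered 53, 37 and 0 in the same order, so day 84 had none in any cluster. Both limits, 10000 and 100000 UMIs, are absolute and were not corrected for the pool. Median UMI counts were lower at day 84 than in the controls in all 17 clusters (log2 differences from -1.59 to -0.11). The authors removed doublets before deposit, and whether cells of very high UMI count hold remaining doublets was not tested.

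The share of all UMIs depends on the number of cells and on the UMIs per cell, both in the cluster and outside it. deepIM-CD cells held 33.2%, 31.3%, 44.1% and 49.8% of all UMIs in the control pools. They held 4.80%, 3.16%, 12.4% and 1.28% in the day 28 pools, and 9.03% and 7.73% in those of day 84. The mean was 39.6% ± 8.83 (SD, n = 4) over control pools, 5.40% ± 4.85 (SD, n = 4) over day 28 pools and 8.38% ± 0.920 (SD, n = 2) over those of day 84, and neither time overlapped the controls. In the controls the cluster thus gave a larger part of the RNA counts than of the cells, since its share of cells was 7.63% to 15.0%.

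The log2 odds of a UMI coming from a deepIM-CD cell, a measure added after the data were seen, were lower at day 28 by -3.96 (standard error 0.654, limma adjusted p = 7.60e-04), where 18 of 25 clusters were called, 72.0%. This was the lowest of the 25 differences. At day 84 they were lower by -2.83 (standard error 0.801, limma adjusted p = 0.0232), with 10 of 25 called, 40.0%, and the call was lost without Control 3, D84 1 or D84 2 (limma adjusted p from 0.0543 to 0.110). The exact permutation test gave its smallest values, 0.0286 at day 28 and 0.133 at day 84. Without D28 4 the day 28 difference was -3.40 (limma adjusted p = 6.92e-04). Without the 5% of cells with the most UMIs, the day 84 difference was -1.92 (limma adjusted p = 0.0915).

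**Figure D3:**
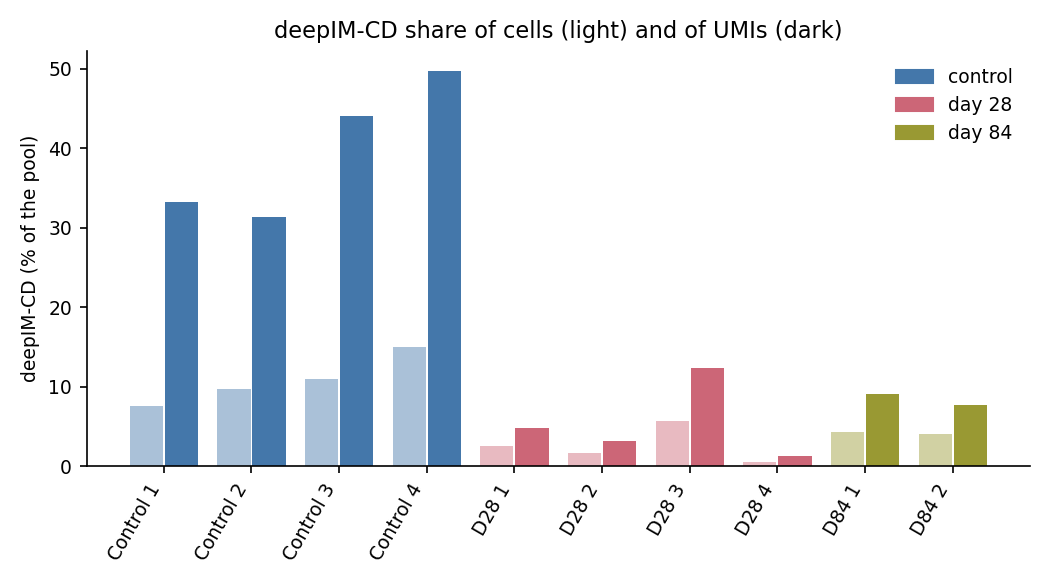
deepIM-CD share of the cells (light bars) and of the UMIs (dark bars) of each pool, in percent. In the control pools 7.63% to 15.0% of cells held 31.3% to 49.8% of UMIs, whereas after R-UUO 0.58% to 5.70% of cells held 1.28% to 12.4%.

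The number of genes detected per deepIM-CD cell was also lower after R-UUO. The median deepIM-CD cell had 3033, 3306, 3091 and 2859 detected genes in the control pools. At day 28 the medians were 2821, 2085, 2105 and 1895, and at day 84 they were 1603 and 1156. Every control pool was above every pool after R-UUO, D28 1 being the closest. At day 28 the log2 difference was -0.48 (standard error 0.190, limma adjusted p = 0.0242), where 10 of 17 clusters were called, 58.8%, and deepIM-CD was the 1 among them that was lower. It lost the call when any of 5 pools was left out (Control 1, Control 3, Control 4, D28 2 or D28 4), with limma adjusted p from 0.0505 to 0.0787, and the exact permutation test gave 0.0286. At day 84 the difference was -1.17 (standard error 0.232, limma adjusted p = 1.88e-05), with 13 of 17 called, 76.5%. The exact permutation test gave 0.133 there. As for the median UMI count, the limma standard error was common to all 17 clusters, so its p-values can be too small.

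Since detected genes rise with UMIs, they were also compared among deepIM-CD cells of 2000 to 3000 UMIs, of which a pool held 30 to 250. These cells had a median of 1719, 1545, 1629 and 1665 detected genes in the controls. The medians were 1165, 1292, 1389 and 1633 at day 28, and 1549 and 1424 at day 84. D28 4, from 35 cells, lay within the control range. At day 28 the log2 difference was -0.27 (standard error 0.092, limma adjusted p = 0.048), where 1 of 3 clusters with enough cells was called, 33.3%. It was called in only 2 of 11 alternatives, one of them without D28 4 (-0.36, limma adjusted p = 6.39e-04), and the exact permutation test gave p = 0.0857. At day 84 it was -0.14 (95% interval -0.39 to 0.11, limma adjusted p = 0.24), with 0 of 3 called, 0.00%, by limma and 0 at an unadjusted p under 0.05, and an exact permutation p of 0.267. Among cells of 3000 to 4000 UMIs the medians were 2001 to 2072 in the controls, 1789, 1797, 1851 and 2083 at day 28, and 1953 and 1780 at day 84, with a log2 difference of -0.12 at day 28 (limma adjusted p = 0.084).

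The mitochondrial percent of deepIM-CD cells fell close to zero after R-UUO, without overlap between controls and either time. The median deepIM-CD cell held 3.80%, 3.92%, 4.09% and 4.21% mitochondrial UMIs in the control pools. At day 28 the medians were 0.053%, 0%, 0% and 0.126%, and at day 84 they were 0.058% and 0%. The mean of the pool medians was 4.00% ± 0.184 (SD, n = 4) over control pools, 0.045% ± 0.060 (SD, n = 4) over day 28 pools and 0.029% ± 0.041 (SD, n = 2) over those of day 84. The day 28 mean was lower than that of the controls by -3.96 percentage points, and by -3.99 without D28 4, and the exact permutation test gave 0.0286 at day 28 and 0.133 at day 84, its smallest values. Over 1% mitochondrial UMIs were found in 98.0% to 99.5% of control deepIM-CD cells, against 0% to 6.67% at day 28 and 0.949% and 0% at day 84.

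No control deepIM-CD cell was without a mitochondrial UMI, 0 of 8487 cells. By counting error only, this allows a share of up to 0.0987% to 0.201% in a single pool. The authors describe a correction for ambient RNA, and whether every pool's deposited counts carry it was not tested. The share of deepIM-CD cells without a mitochondrial UMI was 23.1%, 63.4%, 59.8% and 18.9% at day 28, and 33.9% and 100% at day 84. Among cells outside the cluster it was 0.018% to 1.39% in the controls. There it was 34.9%, 67.5%, 74.4% and 74.6% at day 28, and 61.0% in D84 1, each above the deepIM-CD value of that pool. D84 2 had 0 mitochondrial UMIs in its 959 deepIM-CD cells. The IM-CD, OM-CD_a, OM-CD_b and Uro cells of that pool also had 0, and 96.6% of its cells outside deepIM-CD were without one, so that no limit over cells is given for this zero. The share of cells without mitochondrial UMIs was higher in all 17 clusters tested, of 25, at day 28 and at day 84 by limma (100% called at each time). The fitted size of this difference for deepIM-CD, and with it its p, depends on the 0.5 cells added to the empty control counts, and neither is given.

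Not all clusters lost these counts to the same extent. ISOM-TAL, the thick ascending limb of the inner stripe of the outer medulla, which is rich in mitochondria and was named after its values were seen, kept mitochondrial UMIs in every pool. Summed over cells, they were 4.60% to 6.08% of its UMIs in the controls, 3.54%, 1.52%, 2.78% and 1.95% at day 28, and 2.77% and 3.88% at day 84. For deepIM-CD the summed values were 4.09%, 3.80%, 4.26% and 4.40% in the controls, 0.078%, 0.012%, 0.035% and 0.201% in the day 28 pools, and 0.094% and 0% in those of day 84. The ratio of deepIM-CD to ISOM-TAL within a pool was 0.67, 0.83, 0.87 and 0.76 in the control pools. It was 0.022, 0.0077, 0.013 and 0.103 in the day 28 pools, where D28 4 was the highest and lay well below the controls, and 0.034 and 0 in those of day 84. Neither time overlapped the controls, and since ISOM-TAL was chosen for its values no test between conditions is given. Also named after their values were seen, PT-S2 and PT-S3_b kept 1.18% to 1.80% and 0.758% to 1.23% at day 28, but 0% and 0.0057% in D84 2. IM-CD, ATL, DTL, IM-TL and EndoVR/papilla were at 0.263% or less in every pool after R-UUO. The low level was therefore not particular to deepIM-CD.

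Among the CD clusters in the controls, OM-CD_b had 3.66% to 4.27% and IM-CD 0.71% to 1.55%, so that deepIM-CD resembled the former more than its inner medullary neighbour. After R-UUO each of these clusters was at 0.31% or less. At matched UMI counts the difference was of the same kind: among cells of 2000 to 3000 UMIs the median mitochondrial percent was 2.50% to 3.99% in the controls, 0.202%, 0%, 0% and 0.171% at day 28, and 0.070% and 0% at day 84. When each pool's deepIM-CD cells were divided into 3 equal parts by UMI count, the control medians lay between 3.18% and 4.39% in all parts. The authors describe a correction of the counts for ambient RNA, and UMI counts were fractional in Control 1 and whole elsewhere. The part of this correction in the mitochondrial values was not tested.

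**Figure D4:**
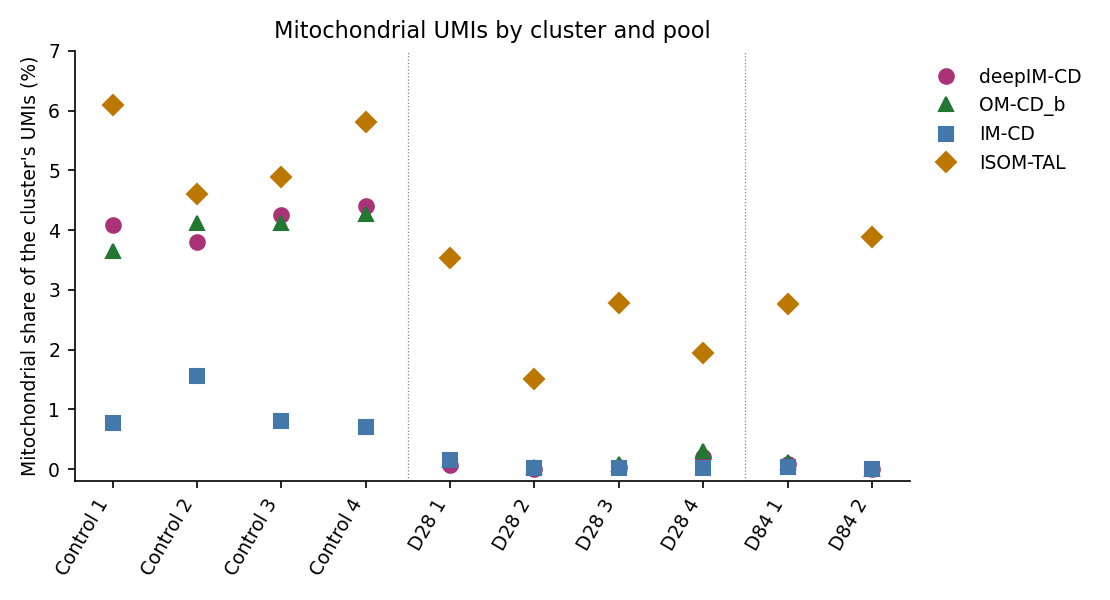
Mitochondrial UMIs as a percent of all UMIs of a cluster, in each pool, for deepIM-CD, the CD clusters OM-CD_b and IM-CD, and ISOM-TAL. deepIM-CD lies at 3.80% to 4.40% in the controls and at 0.201% or less after R-UUO, while ISOM-TAL stays at 1.52% or more.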

How the data were processed

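Dissected renal medullas of 10 pools were measured by a probe-based single-cell assay of fixed RNA. The authors kept cells with at least 300 genes and at most 10% mitochondrial reads. They used SoupX against ambient RNA, scDblFinder and a search for mixed signatures against doublets, and Seurat for integration and clustering. The submitters' processing notes name Cell Ranger 7.1 and mm10. The authors deposited, per cell, a UMI count (whole counts, but expected counts, not whole, in Control 1), a count of detected genes, a mitochondrial percent, and the pool, cluster and cell type. Replicates were the pools named in the deposited tables. The fractional counts of Control 1 were used as given, without a count model.

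Per pool, 0.5 cells were added to each side of a share before its log2 odds were taken, and medians were set on the log2 scale. limma 3.58.1 (R 4.3.3; lmFit, eBayes) compared the 3 conditions in one fit, two-sided, with Benjamini-Hochberg adjustment over all clusters tested and a threshold of 0.05. Depth measures used the 17 clusters with at least 20 cells in every pool. Exact permutation tests, two-sided, compared pool means. Python 3.11.15, pandas 2.3.3, SciPy 1.17.1 and matplotlib 3.10.9 were used. The fit was tested on simulated data. The planned window of 1000 to 1500 UMIs for detected genes held 20 deepIM-CD cells in 3 of 10 pools, so 2000 to 3000 UMIs was used, with 3000 to 4000 UMIs (at least 18 cells in every pool) beside it. The cluster, its comparison clusters and the measures were chosen with earlier results of these data known. Clusters named are the CD clusters and the 3 others with the largest change per comparison, with those outside this rule marked. Alternatives were stricter cell filters, trimmed cells, other denominators, references and windows, and leaving out each pool.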

Additional observations from a re-analysis of the deposited data

Results flagged for a closer look

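In D28 3 the median UMI count of deepIM-CD cells over that of the other cells was 1.28 on the log2 scale, away from the other 3 day 28 pools, its gap to the nearest pool being 0.913 of the range. In D28 4 the mitochondrial percent of deepIM-CD over that of ISOM-TAL was 0.103, the highest of the day 28 pools and apart from them by 0.849 of the range. A gap this large is found by chance in about 1 of 20 groups, and 28 groups of 4 pools were examined.

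The median UMI count and the median number of detected genes of deepIM-CD cells differed between the 2 times after R-UUO, by -1.05 (limma adjusted p = 8.19e-04) and -0.69 (limma adjusted p = 0.00349) on the log2 scale, lower in 2 of 2 day 84 pools than in the 4 day 28 pools. The exact permutation test gave 0.133 for each measure, its smallest value. All 17 clusters differed in the same direction in both measures. Relative to the other cells of the pool, the median UMI count of deepIM-CD cells differed the other way, by 0.34 (limma adjusted p = 0.182).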

How the results depend on the processing

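The lower UMI multiple of deepIM-CD over the other cells kept its direction and its call in 16 of 16 alternatives at each time, from -1.72 to -0.93 at day 28 and from -1.35 to -0.71 at day 84. The share of CD cells at day 28 was called in 16 of 17, with -1.92 and p = 0.0571 in the exact permutation test, and ranged from -2.44 to -1.26 when a pool was left out. At day 84 it ranged from -1.95 to -1.48 when a pool was left out. The share of all cells at day 28 lost its call with inner medullary clusters as the denominator (-0.80, not refitted without D28 4). It ranged from -3.09 to -1.97 when a pool was left out. At day 84 it was -0.31 with that denominator and -1.62 to -1.25 when a pool was left out. The UMI share at day 84 lost its call without the 5% of cells with the most UMIs (-1.92) and without Control 3, D84 1 or D84 2, and ranged from -3.00 to -2.63 when a pool was left out. The median UMI count at day 28 passed the threshold with at least 500 detected genes (-0.53, adjusted p = 0.0453) and without D28 1, with a range of -0.72 to -0.36 when a pool was left out. Detected genes at day 28 ranged from -0.60 to -0.41 when a pool was left out, and from -0.36 to -0.20 in the window of 2000 to 3000 UMIs, where 8 of 10 left-out pools ended the call, as did 3000 to 4000 UMIs (-0.12), chosen after seeing the data. The ratio to IM-CD turned its sign at day 28 with at most 5% mitochondrial UMIs (0.31) and without the 5% of cells with the most UMIs (0.21), and ranged from -0.48 to 0.27 when a pool was left out. At day 84 it turned with at least 500 detected genes (0.23) and at most 5% mitochondrial UMIs (0.0036), and ranged from -0.89 to 0.13. The number of clusters relative to which deepIM-CD was lower at day 84 was 7 to 12 when a pool was left out, with 7 without D84 2. The share of CD cells differed between day 84 and day 28 by -0.42 to 0.76 when a pool was left out, with -0.42 without D28 4. Leaving out a day 28 pool does not alter a difference between day 84 and control, only the spread shared between conditions. The cause of the other changes was not tested, apart from fewer pools. The stricter mitochondrial filter removed 19.0% to 27.9% of control deepIM-CD cells and 0 after R-UUO. Of 357 alternatives for other values, 340 kept direction and side of the threshold. No paired analysis was possible because pools of different conditions came from different mice and the labels pair none of them. The windows of 1000 to 1500 and 500 to 750 UMIs could not be fitted for deepIM-CD. With 2 pools at day 84 the exact permutation test cannot give a p below 0.133.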
